A study of Monodelphis domestica with 2 samples.

Results

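The genes described here are the immune receptor, cytokine and complement genes of opossum primary visual cortex (V1). They were chosen by symbol alone. Every gene whose symbol begins like a numbered CD molecule, interleukin, Toll-like receptor, chemokine or chemokine receptor, colony stimulating factor, Fc receptor, TNF superfamily member, interferon, purinergic P2 receptor, TREM or SIGLEC receptor, or like C1q, C3 and the complement receptors, was taken, without the synaptic IL1RAPL genes. This gave 120 of the 30800 genes in the count tables, of which 11590 carried a symbol. By role they comprised 5 complement genes, 12 C1q-like, C1q/TNF-related and C1q-binding genes, 12 purinergic receptors and 17 chemokines and chemokine receptors. There were also 26 interleukin genes, 2 colony stimulating factor genes and 13 TNF superfamily genes. The others were 7 Toll-like receptors, 1 Fc receptor chain, 5 interferon genes, 1 SIGLEC receptor, 1 tetraspanin and 18 further CD molecules. A symbol says nothing of function, and some of these proteins, such as the scaffold CD2AP and the mitochondrial C1QBP, carry an immune name for historical reasons.

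Complement proteins tag material for removal, cytokines and chemokines carry signals between cells, and Toll-like and purinergic receptors sense microbial products or released nucleotides. In the brain much of this machinery belongs to microglia, the resident macrophages, which depend on signalling through CSF1R. Relatives of the same families also act outside immunity, among them C1q-like proteins at synapses and chemokines that guide migrating neurons.

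The nuclei came from 2 adult male gray short-tailed opossums (Monodelphis domestica), a marsupial, aged 1.5 years (animal 1) and 2 years (animal 2). Neither animal was treated, so both formed a single group, and comparisons were made between cell subclasses within these animals. V1 tissue of both hemispheres was pooled per animal, DNA-stained nuclei were sorted, and the suspension of each animal was loaded as 2 libraries, which were counted as 1 replicate. The deposited labels placed 32764 nuclei in 18 subclasses: 8 glutamatergic (IT_A to IT_D, L5NP, L5PT, L6CT, L6b), 5 GABAergic (Pvalb, Sst, Vip, Lamp5, Frem1) and 5 non-neuronal ones, namely oligodendrocytes (OD), astrocytes, oligodendrocyte precursor cells (OPC), microglia and endothelial nuclei.

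Library totals ranged from 55625042 to 69706055 UMIs, the tags by which copies of the same captured transcript are counted only once. Between 16 and 30 barcodes were shared by any pair of the 4 libraries, pairs from different animals included. Levels are given as CPM, the UMIs of a gene in every 1000000 UMIs of the same animal and subclass. Microglia were thin, with 332 and 391 nuclei and 530271 and 627148 UMIs in animals 1 and 2, and endothelial nuclei thinner still, with 29 and 36 nuclei and 48514 and 57864 UMIs. The subclass labels were themselves built from clusters of these counts, so a difference between subclasses is not independent of the labels. Summed microglial markers reached 3361 and 3392 CPM in microglia and at most 34.6 CPM in the other 4 non-neuronal subclasses. Of the 7 markers that had a symbol, 6 were detected in microglia and ITGAM stood at 0. CSF1R, CX3CR1 and P2RY12, part of that sum, are also among the genes described here. The sum is therefore not independent of their levels given below. The detected markers outside the gene set were PTPRC (409 and 574 CPM), INPP5D (754 and 657 CPM) and APBB1IP (694 and 702 CPM) in microglia. None of these exceeded 34.6 CPM in the other 4 non-neuronal subclasses. The markers of perivascular macrophages (4 of 5 had a symbol) summed to 5.66 and 3.19 CPM in microglia. Those of T cells (3 of 7 had a symbol) summed to 1.89 and 0 CPM in microglia. Astrocyte markers summed to 1584 and 1014 CPM there, of which the glutamate transporter gene SLC1A3 gave 1543 and 987 CPM. AQP4 stood at 18.9 and 6.38 CPM in microglia, GJA1 at 20.7 and 15.9 CPM and GFAP at 1.89 and 4.78 CPM. Neuron markers summed to 462 and 545 CPM in microglia and oligodendrocyte markers to 451 and 545 CPM. Their part in the microglial levels was not tested.

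Most of these genes were scarce. Of the 120 genes, 7 had fewer than 3 UMIs in all labelled nuclei, and 6 of these (CXCL11, ifn7, ifn4, IL36RN, IL17A and P2RY4) had 0, while P2RX2 had 1. In 49 genes the subclass with the highest level held at least 20 UMIs of the gene over both animals, and in 38 of the 49 that subclass was the same in both animals. For 21 of the 49 (42.9%) it was microglia, where 1515 of the 13143 genes that met the same count minimum (11.5%) had their highest level. Astrocytes were highest in both animals for CD109, CXCL14, IL13RA1 and IL17RD, and endothelial nuclei for CD200, CD2AP and CD93. The other genes with the same highest subclass in both animals were IL17RE and TNFSF11 (L5NP), C1QL1 and IL17D (Pvalb), C1QL3 (IT_A), IL1RAP (IT_B), CD47 (L6CT), CXCL12 (L6b), IL16 (OD) and C1QTNF1 (OPC).

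**Figure D1:**
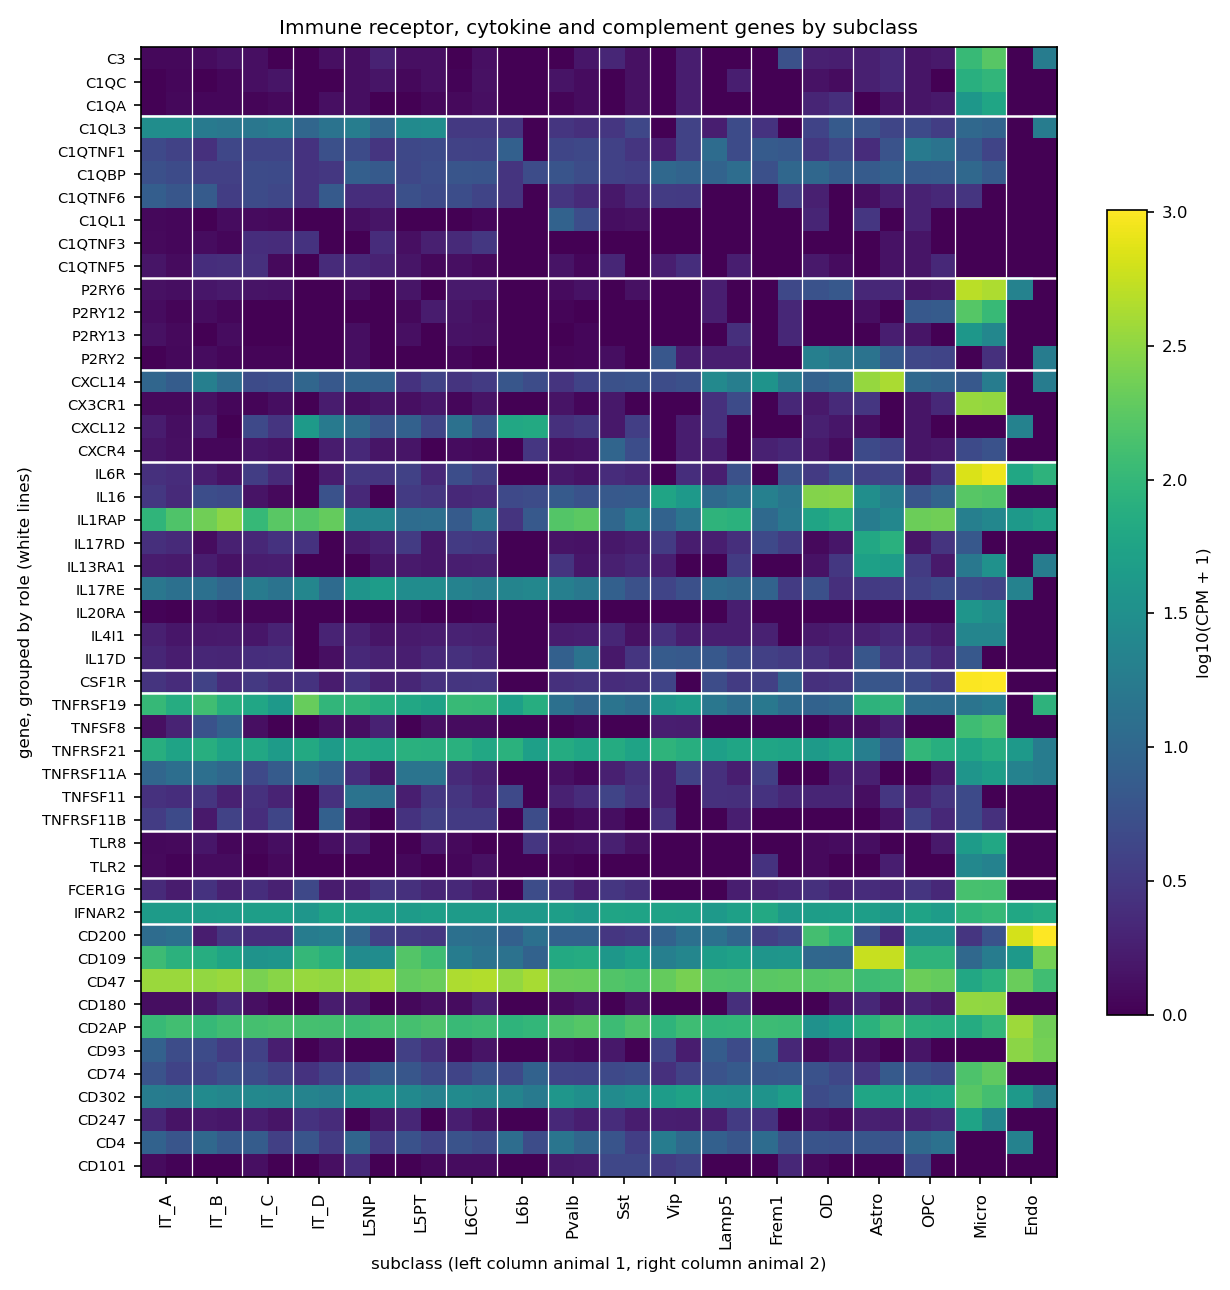
Level of the 49 genes with at least 20 UMIs in their highest subclass, as log10(CPM + 1), with genes in rows grouped by role and the 18 subclasses in columns, animal 1 left and animal 2 right. The bright microglial columns hold the highest level of 21 genes in both animals, and CD47, CD2AP, TNFRSF21 and IFNAR2 are seen in nearly all columns.

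Together the 120 genes supplied 0.507% and 0.533% of all UMIs in microglia (0.520% ± 0.0190, SD over the 2 animals, as for all errors of levels below). The share was 0.296% ± 0.0110 in endothelial nuclei and 0.177% ± 0.00598 in astrocytes, and between 0.0664% and 0.124% in the other 15 subclasses. The microglial share lay above that of every other subclass in both animals. The sum was uneven across genes. Over all labelled nuclei CD47 alone gave 28.9% of the UMIs of the 120 genes, yet CD47, CD2AP, IL1RAP and CD109, the 4 genes with the most UMIs, gave 3.71% of them in microglia.

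**Figure D2:**
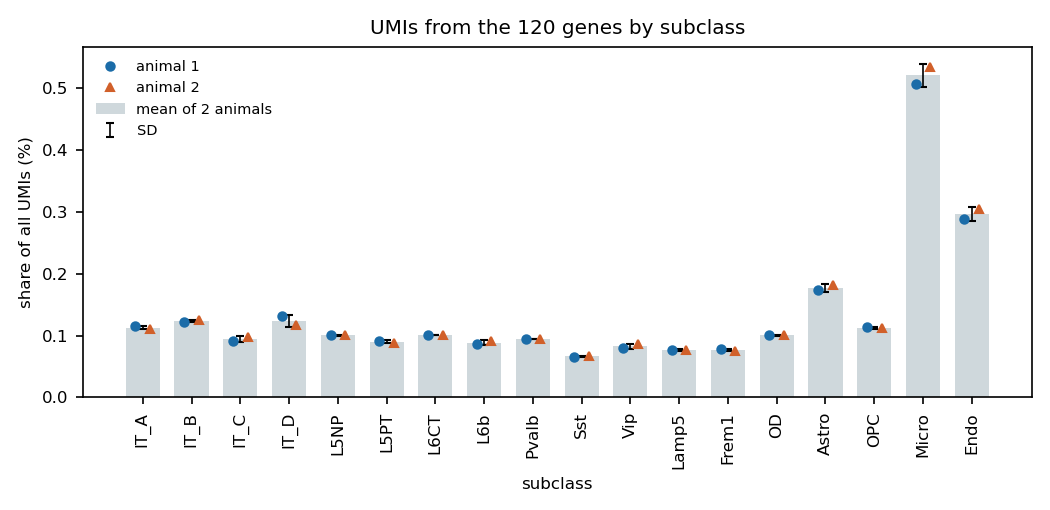
Share of all UMIs that came from the 120 genes in each subclass, in percent, with bars for the mean, error bars for the SD of 2 animals and points for the animals. Microglia stand at 0.520%, endothelial nuclei at 0.296% and astrocytes at 0.177%, and the other 15 subclasses lie at or below 0.124%.

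Microglia were then compared with all other labelled nuclei, on UMIs summed per animal. Subclasses with more UMIs weighed more in that sum, here and in the comparisons of the other non-neuronal subclasses below. IT_A gave 36211404 and 53793396 UMIs in animals 1 and 2, and oligodendrocytes, the largest non-neuronal subclass, gave 4887460 and 3820252 UMIs. In the microglial comparison 87 of the 120 genes passed the low-count filter and could be tested, and the other 33 could not. At an adjusted p under 0.05 (edgeR quasi-likelihood test, Benjamini-Hochberg over all genes), 38 of the 87 were higher in microglia and 12 were lower, while 13.3% of all 22003 genes tested were called higher and 21.4% lower. The median log2 fold change was 1.01 over the 87 genes and -0.72 over all genes. Some genes had 0 UMIs in microglia, 16 of the 87 and 22.1% of all genes, and with these set to 3 UMIs the median log2 ratio of CPM was 2.44 over the 87 and 0.52 over all genes. A gene scarce elsewhere passes the filter through the group in which it is high, so these counts describe the genes tested and not all 120.

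Among complement genes, C1QA and C1QC, subunits of the recognition molecule of the classical pathway, and C3, the protein on which the pathways converge, were higher in microglia. C3 stood at 106 CPM in animal 1 and 166 CPM in animal 2, against 0.246 and 0.332 CPM in all other nuclei. The log2 fold change was 8.46 ± 0.289 (SE; adjusted p = 3.59e-13), and every microglial value lay above every other. In astrocytes C3 stood at 0.856 and 1.21 CPM. C1QC reached 77.3 and 95.7 CPM (log2 fold change 8.23 ± 0.335, adjusted p = 3.61e-12) and C1QA 37.7 and 57.4 CPM (7.47 ± 0.526, adjusted p = 3.77e-09). Neither exceeded 1.57 CPM in any other subclass. By library, microglial C1QA was uneven in animal 1, at 10.7 and 68.2 CPM, and stood at 59.5 and 55.5 CPM in animal 2. The anaphylatoxin receptor genes were scarce and did not pass the test, with 2 microglial UMIs each for C3AR1 and C5AR2.

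Purinergic receptors of the P2Y class included the microglial marker P2RY12, an ADP receptor that steers microglial processes. It stood at 164 and 107 CPM in microglia and at 0.322 and 0.216 CPM elsewhere (log2 fold change 8.57 ± 0.278, adjusted p = 1.83e-13). P2RY6, a UDP receptor, reached 496 and 440 CPM against 0.634 and 0.564 CPM (9.20 ± 0.212, adjusted p = 1.19e-14). P2RY13 had 37.7 and 23.9 CPM against 0.218 and 0.199 CPM (6.78 ± 0.517, adjusted p = 1.01e-08). In each of them the microglial values were far above those elsewhere in both animals. Over the 12 receptors, 9 were tested and 6 were higher, where 13.3% of all genes were, but P2RY8, with a median of 0 CPM over the 18 subclasses, is among them. P2RX4, an ATP-gated channel, had 9.43 and 22.3 CPM in microglia and did not pass (adjusted p = 0.828).

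CX3CR1, the fractalkine receptor, had 353 and 332 CPM in microglia and 0.331 and 0.340 CPM elsewhere, the largest log2 fold change of the 87 genes (9.58 ± 0.217, adjusted p = 1.19e-14). Of the 17 chemokine genes 9 were tested, and besides CX3CR1 the receptors CCR1 (19 microglial UMIs) and CXCR4 (5 UMIs) were higher, where 13.3% of all genes were. CCR1 had a median of 0 CPM over the 18 subclasses. The CXCR4 call was lost with the animal as a block (adjusted p = 0.122). CXCL12 had 0 microglial UMIs against 666 elsewhere, a level at least 1.14-fold lower by the floor of 3 UMIs, and its call was also lost with the block (adjusted p = 0.0630).

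Among cytokine receptors, CSF1R, the receptor for colony stimulating factor 1, stood at 986 and 1020 CPM in microglia and 2.06 and 1.67 CPM elsewhere (log2 fold change 8.68 ± 0.216, adjusted p = 1.19e-14). The animals differed little, and outside microglia no subclass exceeded 8.07 CPM. IL6R, the ligand-binding chain of the interleukin 6 receptor, reached 686 and 855 CPM against 1.98 and 1.64 CPM (8.34 ± 0.221, adjusted p = 1.77e-14). Its signalling partner IL6ST was expressed in every subclass and was 102 and 132 CPM in microglia against 42.8 and 39.5 CPM (1.12 ± 0.184, adjusted p = 1.02e-04). OPC stood above microglia for IL6ST, at 130 and 139 CPM, and endothelial nuclei averaged 145 ± 57.9 CPM on 15 UMIs. IL10RB, a chain of the interleukin 10 receptor, had 121 and 113 CPM (5.43 ± 0.212, adjusted p = 2.05e-12). Endothelial nuclei averaged 145 ± 88.3 CPM of IL10RB on 16 UMIs and were its highest subclass in animal 2. IL20RA, with 35.8 and 28.7 CPM in microglia, had only 11 UMIs in all other nuclei. IL16, a cytokine cut from a larger precursor, was higher at 168 and 153 CPM against 17.1 and 12.0 CPM (3.07 ± 0.193, adjusted p = 1.01e-09), although oligodendrocytes held more of it. Of the 26 interleukin genes 17 were tested. Of these 8 were higher and 3 lower (IL1RAP, IL11RA and IL17RE), where 13.3% and 21.4% of all genes were called. IL20RA, among the 8, had a median of 0 CPM over the 18 subclasses, so the count describes only the genes tested. Against only the other non-neuronal nuclei the log2 fold change of IL17RE was 0.056 (adjusted p = 0.966).

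Within the TNF superfamily, TNFSF8 (CD30 ligand) stood at 119 and 140 CPM in microglia against 0.568 and 1.05 CPM elsewhere (log2 fold change 6.90 ± 0.301, adjusted p = 9.83e-12). TNFRSF11A (RANK), a receptor needed for osteoclast formation, had 35.8 and 46.2 CPM against 5.49 and 7.22 CPM (2.29 ± 0.322, adjusted p = 1.81e-05). TNFSF10 and TNFSF12 were higher with 19 and 9 microglial UMIs. TNFRSF19 was lower, at 13.2 and 15.9 CPM against 77.6 and 64.2 CPM (-2.67 ± 0.268, adjusted p = 3.30e-07). TNFRSF21 (death receptor 6) had 58.5 and 73.3 CPM, between the levels of other subclasses, and did not pass (adjusted p = 0.251).

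The 7 Toll-like receptor genes were tested and called higher in microglia, where 13.3% of all genes were, but TLR4, TLR5 and TLR10 had a median of 0 CPM over the 18 subclasses. Such genes pass the low-count filter through the group in which they are high, so the count of 7 is no result about the family. TLR8, a sensor of single-stranded RNA, had 43.4 and 62.2 CPM against 0.227 and 0.216 CPM (log2 fold change 7.49 ± 0.460, adjusted p = 7.92e-10). TLR2, which recognises bacterial lipopeptides, had 24.5 and 20.7 CPM against 0.151 and 0.124 CPM (6.93 ± 0.525, adjusted p = 9.16e-09). The other 5 rested on 7 to 19 microglial UMIs each, TLR6 on 7, of which 1 came from animal 1. TLR10 also had 17 UMIs in astrocytes, at 2.00 and 4.05 CPM.

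Of the Fc receptor and CD genes, CD180, a Toll-like homologue of B cells and myeloid cells, had 332 and 320 CPM in microglia and 0.312 and 0.423 CPM elsewhere (log2 fold change 9.37 ± 0.232, adjusted p = 1.19e-14). FCER1G, the shared signalling chain of Fc receptors, stood at 136 and 132 CPM against 1.38 and 0.830 CPM (6.54 ± 0.246, adjusted p = 1.31e-12). CD74, the invariant chain of MHC class II, had 145 and 187 CPM against 4.06 and 3.54 CPM (5.06 ± 0.199, adjusted p = 2.26e-12). CD302, a C-type lectin, was present in all subclasses and higher in microglia at 170 and 129 CPM (2.28 ± 0.182, adjusted p = 1.73e-08). IFNAR2, a chain of the type I interferon receptor, ranged from 37.0 to 69.1 CPM in the other 17 subclasses and was 92.4 and 102 CPM in microglia (0.70 ± 0.182, adjusted p = 5.38e-03).

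**Figure D3:**
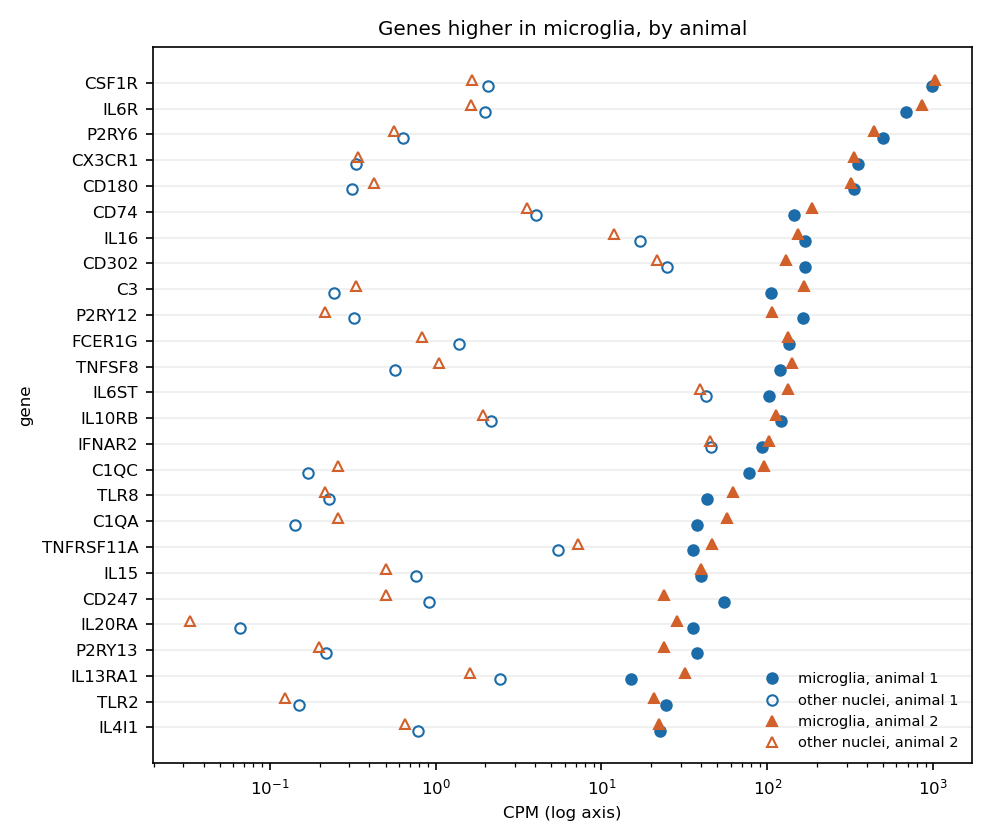
CPM on a log axis of the 26 genes called higher in microglia with at least 20 microglial UMIs, with filled symbols for microglia and open ones for all other nuclei, circles for animal 1 and triangles for animal 2. In every gene both filled symbols lie to the right of both open ones, and CSF1R is highest at 986 and 1020 CPM.

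Other genes of these families were low in microglia. CD47, the signal that restrains phagocytes, had 62.2 and 82.9 CPM in microglia against 302 and 326 CPM elsewhere (log2 fold change -2.51 ± 0.203, adjusted p = 2.18e-08), the lowest level of all 18 subclasses in both animals. CD200, whose receptor lies on myeloid cells, had 1.89 and 4.78 CPM, resting on 4 UMIs, against 14.1 and 12.3 CPM (adjusted p = 2.15e-03). IL1RAP and CD109 were lower too, by 2.70 ± 0.326 and 2.96 ± 0.284 on the log2 scale (adjusted p = 2.96e-06 and 1.78e-07). CD4, a co-receptor of T cells, had 0 UMIs in microglia and 1403 in the other nuclei, where every subclass held some. Its level in microglia was at least 2.39-fold lower than the 6.20 CPM of the others (adjusted p = 3.57e-03), the floor being 3 UMIs over both animals. CD93 likewise had 0 microglial UMIs, and its call was lost with the animal as a block (adjusted p = 0.0588).

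Signalling genes downstream of these receptors, taken from lists outside the symbol rule, were counted in the same comparison. Of 16 tested adaptor and kinase genes 12 were higher in microglia and 2 lower (FYN and TRAF3), where 13.3% and 21.4% of all genes were called. The same list had 7 of 16 higher and 4 lower in oligodendrocytes (21.3% and 28.5% of all genes), 6 and 1 in astrocytes (19.1% and 23.9%), 6 and 3 in OPC (13.4% and 19%) and 5 and 2 in endothelial nuclei (4.09% and 8.3%). SYK, which couples FCER1G to its targets, stood at 575 and 566 CPM against 43.5 and 75.6 CPM (log2 fold change 2.84 ± 0.239, adjusted p = 3.51e-08). Of 12 tested complement cascade genes, from a list of 22, 3 were higher (C6, CFP and ITGB2). Only 3 of 13 listed interferon response genes had a symbol, and 2 of these 3 were higher (IRF1 and IRF2). C6 and IRF1 were scarce, at 3.77 and 4.78 CPM and at 5.66 and 4.78 CPM in microglia. Among 11 further cytokine genes TNF and TGFB1 were higher and KIT, KITLG, LIFR, TGFB2 and TGFB3 lower. TNF stood at 81.1 and 87.7 CPM against 0.142 and 0.207 CPM (8.48 ± 0.337, adjusted p = 2.61e-12).

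The depth per nucleus limits what these levels say of single nuclei. With each nucleus thinned to 1000 UMIs, CSF1R was seen in 60.6% of microglial nuclei of animal 1 (95% interval 55.0 to 65.9%, Clopper-Pearson, counting error only) and 60.9% of animal 2 (55.8 to 65.9%). In IT_A neurons, which should lack it, the shares were 0.116% and 0.0899%. C1QA was seen in 4.66% (2.63 to 7.57%) and 5.28% (3.25 to 8.03%) of microglial nuclei and in 0% and 0.0539% of IT_A nuclei, where 0 of 4300 allows up to 0.0858%. Before thinning the median depth was 1430 and 1483 UMIs in microglia and 7794 and 8753 UMIs in IT_A. The microglial shares are well above those in neurons, while most microglial nuclei showed no C1QA at this depth.

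In astrocytes 84 genes were tested, and 15 were higher and 13 lower than in the other nuclei, where 19.1% and 23.9% of all 22709 genes were called. The median log2 fold change was -0.39 over the 84 genes and -0.17 over all. CXCL14, a chemokine that is also made by interneurons, stood at 339 and 421 CPM against 7.20 and 5.96 CPM (log2 fold change 5.77 ± 0.176, adjusted p = 1.04e-09). CXCL14 was seen in 28.0% (25.6 to 30.6%) and 32.0% (28.8 to 35.3%) of astrocytes thinned to 1000 UMIs, against 0.814% and 0.629% of IT_A nuclei. CD109, a membrane-anchored protein of the alpha-2-macroglobulin family, reached 571 and 558 CPM against 73.2 and 63.3 CPM (2.97 ± 0.135, adjusted p = 1.51e-08). Both genes were high in each animal without overlap.

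Of 16 tested interleukin and interleukin receptor genes 5 were higher and 3 lower in astrocytes, where 19.1% and 23.9% of all genes were called. IL17RD, which modulates FGF and interleukin 17 signalling, had 63.0 and 80.5 CPM against 1.35 and 1.24 CPM (log2 fold change 5.70 ± 0.191, adjusted p = 1.98e-09). IL13RA1, a chain shared by receptors for interleukins 4 and 13, had 50.2 and 45.3 CPM against 0.866 and 0.868 CPM (5.70 ± 0.195, adjusted p = 2.25e-09), with microglia next at 15.1 and 31.9 CPM. IL10RB was higher at 16.3 and 21.9 CPM (3.02 ± 0.264, adjusted p = 2.62e-06). Lower in astrocytes were TNFRSF21 at 18.3 and 6.88 CPM against 72.7 and 56.5 CPM (-2.37 ± 0.278, adjusted p = 3.06e-05), IL1RAP (-2.52 ± 0.262, adjusted p = 1.12e-05) and CD47 (-1.52 ± 0.141, adjusted p = 4.42e-06).

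In oligodendrocytes 15 of 85 tested genes were higher and 26 lower, while 21.3% and 28.5% of all 22674 genes were called, and the median log2 fold change was -0.65 against -0.30 over all. IL16 had 279 and 288 CPM against 5.25 and 3.72 CPM (log2 fold change 6.09 ± 0.189, adjusted p = 9.11e-09). It was seen in 23.0% (21.3 to 24.8%) and 23.5% (21.5 to 25.5%) of thinned oligodendrocyte nuclei and in 0.186% and 0.126% of IT_A nuclei. CD200 stood at 128 and 91.1 CPM against 8.49 and 9.65 CPM (3.69 ± 0.196, adjusted p = 1.63e-07), and the nucleotide receptor P2RY2 at 18.8 and 14.7 CPM against 0.691 and 0.298 CPM (5.21 ± 0.379, adjusted p = 1.18e-06). CD109 (-3.13 ± 0.169, adjusted p = 1.74e-07), TNFRSF19 (-3.04 ± 0.174, adjusted p = 2.45e-07) and IL11RA (-2.89 ± 0.262, adjusted p = 6.29e-06) were lower. P2RY12 had 0 UMIs in oligodendrocytes and TNFRSF11B, the decoy receptor osteoprotegerin, 0 as well, which places them at least 2.84-fold and 6.68-fold below the other nuclei.

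The deposited labels split oligodendrocytes into 5 types, and the genes were not alike across them. TNFRSF21 stood at 618 and 877 CPM in OD_5, the smallest type with 34 and 28 nuclei, and between 8.24 and 52.6 CPM in the other 4 types. CD302 was 38.1 and 35.4 CPM in OD_5, on 9 UMIs, and at most 8.29 CPM in the others. IL16 ran the other way, at 374 and 396 CPM in OD_1, 151 and 110 CPM in OD_4 and 7.63 and 0 CPM in OD_5, and CD200 also had 7.63 and 0 CPM there. P2RY2 was highest in OD_4, at 50.5 and 43.9 CPM, and 0 in OD_5. For TNFRSF21, CD302, IL16 and CD200 the values of OD_5 lay outside those of the other types in both animals. Oligodendrocyte markers summed to 10358 and 8863 CPM in OD_5 and to 14788 CPM or more in the others, and OPC markers to 15.3 and 26.6 CPM in OD_5 and at most 3.76 CPM elsewhere. These levels are a description with no test, since types are clusters of the same counts.

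**Figure D4:**
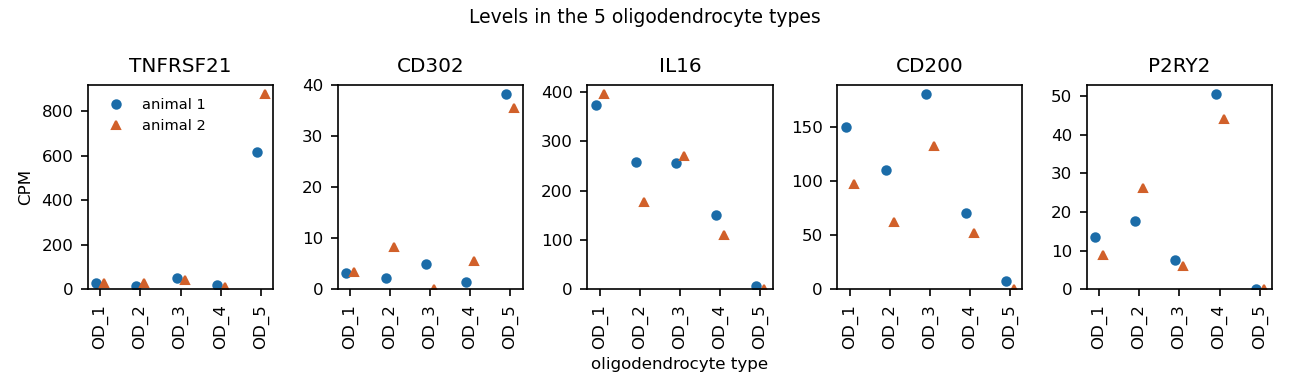
CPM of 5 genes in the 5 oligodendrocyte types, circles for animal 1 and triangles for animal 2. TNFRSF21 and CD302 are high in OD_5 (618 and 877 CPM for TNFRSF21), where IL16, CD200 and P2RY2 are at or near 0.

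OPC had 12 higher and 16 lower genes of 85 tested, against 13.4% and 19% of all 22372 genes, with a median log2 fold change of -0.22 over the 85 genes and -0.17 over all. IL1RAP, the chain that interleukin 1 family receptors share, stood at 214 and 224 CPM against 79.9 and 126 CPM (log2 fold change 0.96 ± 0.203, adjusted p = 1.83e-03). IL6ST had 130 and 139 CPM against 41.4 and 38.7 CPM (1.64 ± 0.135, adjusted p = 2.18e-07). The C1q/TNF-related gene C1QTNF1 was higher at 16.1 and 13.1 CPM against 3.23 and 3.13 CPM (2.10 ± 0.301, adjusted p = 6.57e-05). P2RY12, the microglial marker, was also called higher here, with 5.69 and 6.22 CPM on 22 UMIs (2.67 ± 0.478, adjusted p = 4.92e-04). TNFRSF19 was lower at 10.9 and 10.6 CPM (-2.84 ± 0.196, adjusted p = 3.54e-08).

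Endothelial nuclei were tested at the lowest depth. Of 79 genes 9 were higher and 2 lower, against 4.09% and 8.3% of all 21710 genes. As 48 of the 79 genes had 0 endothelial UMIs, and 50.2% of all genes, the median fold change is not informative there (log2 -7.37 over the 79 and -6.57 over all, and 4.25 and 2.22 with 0 set to 3 UMIs). CD200 had 660 and 1020 CPM against 13.7 and 11.7 CPM (log2 fold change 5.33 ± 0.270, adjusted p = 3.76e-19), on 91 UMIs. It was seen in 31.0% (15.3 to 50.8%) and 47.2% (30.4 to 64.5%) of thinned endothelial nuclei and in 1.23% and 1.26% of IT_A nuclei. CD93, a C-type lectin-like receptor of endothelium, had 309 and 242 CPM against 3.55 and 2.25 CPM (5.84 ± 0.496, adjusted p = 3.42e-12), on 29 UMIs.

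IL15, CD82, IL10RB and TNFSF10 were higher on 6 to 16 endothelial UMIs each. The calls of TNFSF12, TLR3 and IL6R, on 3 to 8 UMIs, were lost with the animal as a block (adjusted p = 0.0650, 0.185 and 0.0578), which left 6 genes higher, where 2.76% of all genes were called. All 3 TLR3 UMIs came from animal 2. CD47 was lower at 206 and 121 CPM against 301 and 325 CPM (-1.70 ± 0.344, adjusted p = 2.63e-04). Of the 7 microglial markers with a symbol, 6 had 0 UMIs in endothelial nuclei and INPP5D stood at 20.6 and 34.6 CPM there, while neuron markers summed to 350.4 and 778 CPM and oligodendrocyte markers to 515 and 51.8 CPM. The part of these in the endothelial levels was not tested.

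Between GABAergic and glutamatergic nuclei 9 of 77 tested genes were higher and 10 lower in GABAergic nuclei, against 12.8% and 14.6% of all 22174 genes, and 12 and 15 of them with the animal as a block, where 21.2% and 22.3% of all genes were called. The median log2 fold change was -0.11 over the 77 genes and -0.01 over all. C1QL1, a synaptic organiser of the C1q-like family, had 4.44 and 2.39 CPM in GABAergic against 0.114 and 0.142 CPM in glutamatergic nuclei (log2 fold change 4.57 ± 0.432, adjusted p = 6.48e-04). Its relative C1QL3 was opposite, at 1.69 and 2.17 CPM against 19.7 and 21.2 CPM (-3.54 ± 0.209, adjusted p = 1.07e-04). IL17D (2.56 ± 0.325, adjusted p = 2.10e-03) and IL16 (2.51 ± 0.200, adjusted p = 3.24e-04) were higher in GABAergic nuclei, and TNFRSF19 (-2.73 ± 0.136, adjusted p = 6.31e-05), TNFRSF11A (-3.55 ± 0.278, adjusted p = 3.01e-04) and CD47 (-1.04 ± 0.105, adjusted p = 8.68e-04) lower.

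Across the 13 neuronal subclasses 40 genes could be tested and 31 (77.5%) differed, where 57.3% of all 16156 genes did, and 33 with the animal as a block, where 72.3% of all genes did. IL1RAP stood at 226 and 309 CPM in IT_B, 160 and 195 CPM in IT_D, and 159 and 179 CPM in Pvalb nuclei, and at 1.82 and 5.95 CPM in L6b (adjusted p = 1.89e-11). Within Pvalb nuclei the type Pvalb_4, with 194 and 163 nuclei, had 25.7 and 30.1 CPM and the other 5 types 104 to 248 CPM. Animal 2 was above animal 1 in all 4 IT subclasses.

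CXCL12, a chemokine that guides migrating neurons, stood at 63.6 and 65.5 CPM in L6b and at 42.2 and 16.6 CPM in IT_D, and it was at most 12.3 CPM in the other 11 (adjusted p = 4.95e-07). Its receptor gene CXCR4 was highest in Sst nuclei, at 8.46 and 4.19 CPM (adjusted p = 5.82e-05). IL17RE was highest in L5NP, at 35.6 and 44.8 CPM, followed by L5PT at 27.7 and 27.9 CPM (adjusted p = 3.43e-07). IL16 was highest in Vip nuclei at 56.1 and 40.8 CPM and next in Frem1 at 19.6 and 13.8 CPM (adjusted p = 6.80e-10). In all of these the highest subclass was the same in both animals.

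The ligand and receptor genes of the RANK system were highest in different subclasses. The ligand gene TNFSF11 (RANKL) was highest in L5NP, at 12.9 and 11.8 CPM, with no other neuronal subclass above 3.63 CPM (adjusted p = 1.62e-04). L5NP held 68 of the 393 TNFSF11 UMIs of all labelled nuclei. Among neurons the receptor gene TNFRSF11A was highest in L5PT, at 13.5 and 13.4 CPM, near IT_A at 8.95 and 11.3 CPM and IT_B at 11.4 and 8.98 CPM (adjusted p = 1.85e-08), with microglia above all of them. The decoy receptor gene TNFRSF11B was lower in GABAergic nuclei, at 0.250 and 0.217 CPM against 1.93 and 3.35 CPM (log2 fold change -3.63 ± 0.527, adjusted p = 3.64e-03). TNFSF8, high in microglia, was among neurons highest in IT_B at 4.77 and 7.70 CPM and at most 0.985 CPM in the other 12 (adjusted p = 7.65e-05).

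C1QL3 was high in IT_A at 28.5 and 29.0 CPM and in L5PT at 26.8 and 28.2 CPM, which lie close together, and at most 2.17 CPM in L6CT (adjusted p = 7.45e-10). C1QL1 was highest in Pvalb nuclei at 7.95 and 4.17 CPM and at most 0.472 CPM in the other 12 (adjusted p = 1.36e-05), and IL17D was also highest in Pvalb, at 7.27 CPM in animal 1 and above that in animal 2 (adjusted p = 5.89e-07). CD109 was highest in L5PT at 159 and 117 CPM and lowest in L6b at 12.7 and 7.93 CPM (adjusted p = 9.24e-12). CD47 was highest in L6CT at 435 and 460 CPM and lowest in Sst and Lamp5, at 143 to 153 CPM (adjusted p = 4.20e-10). CXCL14 was highest in Frem1 in animal 1 (33.9 CPM) and in Lamp5 in animal 2 (18.6 CPM), so the order of these 2 subclasses was not settled (adjusted p = 6.19e-08).

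**Figure D5:**
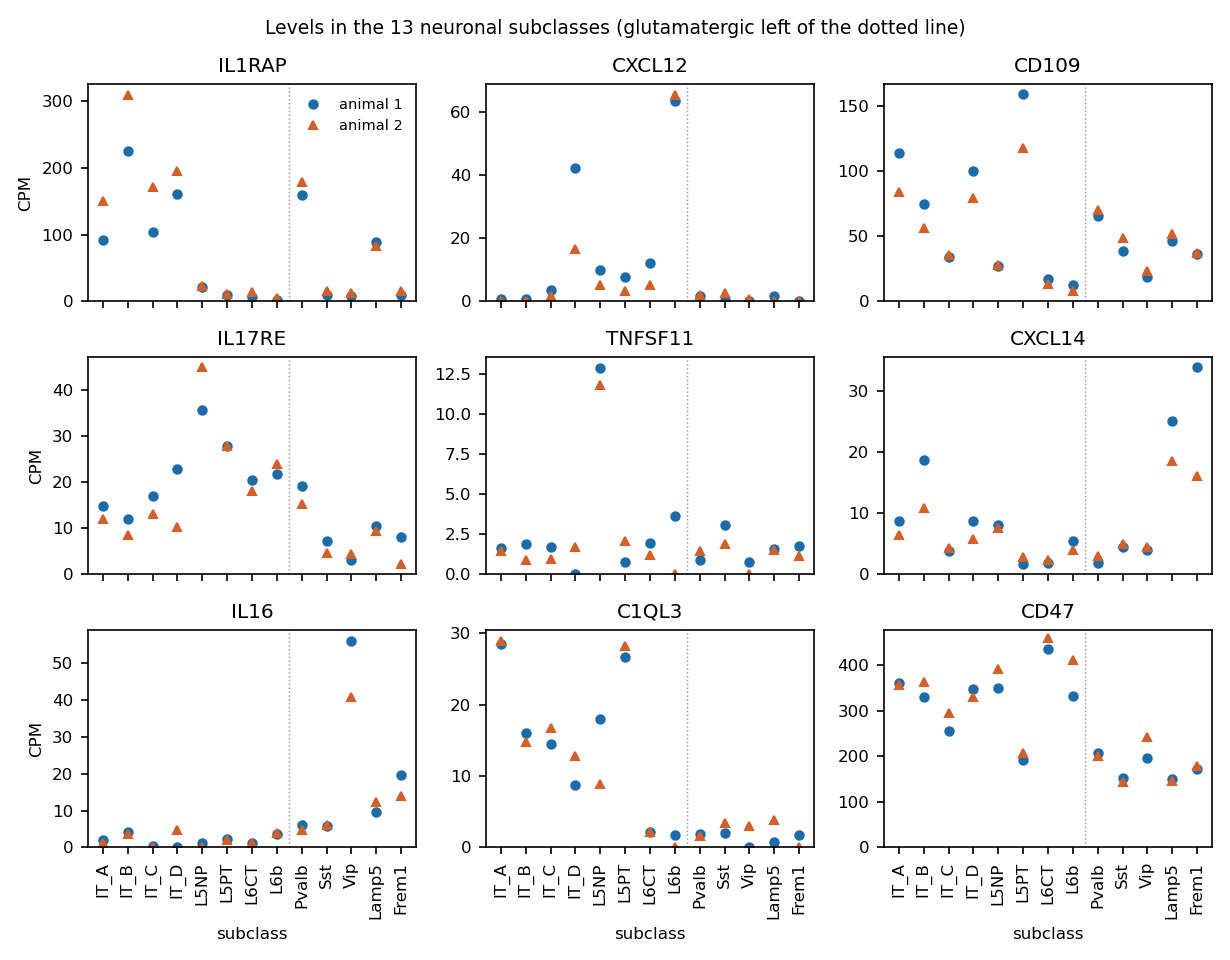
CPM of 9 genes in the 13 neuronal subclasses, circles for animal 1 and triangles for animal 2, with glutamatergic subclasses left of the dotted line. CXCL12 peaks in L6b (63.6 and 65.5 CPM), TNFSF11 in L5NP (12.9 and 11.8 CPM), IL16 in Vip (56.1 and 40.8 CPM) and CD47 in L6CT (435 and 460 CPM).

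Of the genes called higher in microglia, IL16, TNFRSF11A, CXCR4, CD302, TNFSF8, IL6R, IL10RB and IL6ST also differed among the 13 neuronal subclasses, the last 3 near the threshold (adjusted p = 0.0393, 0.0456 and 0.0461). CSF1R (adjusted p = 0.343), CD74 (0.612) and FCER1G (0.641) did not pass that test, nor did IFNAR2 (0.671), which stood between 37.0 and 65.1 CPM in each of them. TNFRSF21 did not pass either (adjusted p = 0.0997) unless the animal was a block (adjusted p = 4.44e-04).

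With 1 animal per age the animals could be set side by side only as a description. In microglia 24 of the genes had at least 40 UMIs, and in 3 of them the libraries of the animals did not overlap and the levels differed at least 1.5-fold, where 10.9% of the 4893 genes with as many UMIs did. CD247 had 56.9 and 52.2 CPM in the libraries of animal 1 and 19.8 and 27.7 CPM in those of animal 2. C3 was lower in animal 1 (110 and 100.4 CPM) than in animal 2 (172 and 160.2 CPM), and P2RY12 was higher in animal 1 (156 and 173 CPM against 106 and 108 CPM). Libraries of an animal came from 1 suspension, so these differences are between animals and age cannot be told apart from any other difference between them. The count was 3 of 18 genes in oligodendrocytes (10.6% of all), 4 of 18 in astrocytes (10.2%) and 1 of 14 in OPC (8.24%). P2RX4 was among them in each of these 3 subclasses, higher in animal 2 in oligodendrocytes (ratio 1.54) and OPC (1.64) and lower in astrocytes (0.610).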

How the data were processed

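Raw UMI counts per gene and nucleus, as the authors deposited them, were used for 2 animals. Library names inside the deposited annotation differ from the sample titles, so counts were tied to an animal, and to its age, by GEO's record of each sample's files. Per the labels the authors aligned reads with Cell Ranger (version 6.1.1 in the submitters' processing notes, while the matrix header names another release), introns included, to an ASM229v1 reference whose gene ends had been extended, and labelled class, subclass and type by clustering. The deposited doublet score, a fraction from 0 to 1 that the authors computed with Scrublet, was not tested. Its call marked 798 labelled nuclei (2.44%), which were kept except in 1 of the alternatives. Cell Ranger counts only reads that map to 1 gene, so counts of close copies such as the interferon genes are uncertain.

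For each subclass the counts of an animal were added up, and the sums were compared in edgeR 4.0.16 in R 4.3.3 (TMM, low-count filter, quasi-likelihood test, Benjamini-Hochberg over all genes tested, threshold 0.05). TMM scaling lowered log2 fold changes below the log2 ratio of CPM by 0.40 in microglia, 0.73 in endothelial nuclei, 0.08 in astrocytes, 0.11 in OPC and 0.13 in GABAergic nuclei, and raised them by 0.10 in oligodendrocytes (shift -0.10). With DESeq2 size factors or plain CPM 0 called genes changed sign in any of these 6 comparisons. With 2 animals, p-values rest on the spread between these animals and on a spread that edgeR shares across genes. The SE was the absolute log2 fold change divided by the square root of the F statistic of the same test. Sums of the same animal are paired by origin, and once subclass means were subtracted they correlated with each other by 0.00249 to 0.596 (median 0.115) over 17227 genes.

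Shares of nuclei used nuclei thinned to 1000 UMIs, which left out 57 of 32764, 22 of them microglial. A group with 0 UMIs was given a floor of 3. Intervals are 95%. Python 3.11.15 with pandas 2.3.3, scipy 1.17.1 and matplotlib 3.10.9 was used.

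The genes, lists and tests were chosen with earlier results of these data known. Genes were named by rules, and not every gene that met them is printed. Per role, the rule took up to 4 genes highest in CPM with at least 20 UMIs in their highest subclass. Per comparison, it took up to 10 called genes with the largest fold change in each direction. Those needed at least 20 UMIs in the higher group and the same direction in both animals. For the neuronal subclasses, it took up to 15 called genes with at least 20 UMIs in the highest subclass. These were the genes with the largest ratio of the highest to the median subclass (1 CPM added). Genes under 3 UMIs were named as a list. Genes outside these rules were chosen after their values were seen. Alternatives covered DESeq2 1.42.0, its size factors, no low-count filter, the block, doublets, at most 100 nuclei per subclass, other reference nuclei and leaving out each animal. Some items of the signalling lists are not reported here.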

Additional observations from a re-analysis of the deposited data

Results flagged for a closer look

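Quality-passing nuclei that the study left out of its subclasses, 2315 in all, entered no comparison above. By the rule of at least 20 CPM in both animals and over 5-fold the highest labelled subclass, 0 of the 120 genes stood out there. In 7 cases a gene with at least 10 UMIs was above every labelled subclass in both animals. In ambiguous non-neuronal nuclei (138 in each animal) TNFRSF21 averaged 153 CPM, with 166 and 141 CPM in animals 1 and 2 against 97.7 and 77.9 CPM in the highest labelled subclass, though below the OD_5 type. CXCR4 averaged 19.2 CPM in the same nuclei, on 7 and 8 UMIs, and C1QTNF7 16.6 CPM, on 5 and 8 UMIs. In ambiguous GABAergic nuclei (302 and 428) CD24 averaged 20.6 CPM, with 23.1 and 18.1 CPM against 3.59 and 3.30 CPM, CD4 averaged 18.4 CPM and CXCR4 11.7 CPM. In GABAergic nuclei left out as doublets C1QTNF7 averaged 6.06 CPM. These are values without a test.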

How the results depend on the processing

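The limits are few animals and thin non-neuronal sums. With at most 100 nuclei per subclass and animal, 24 of 49 tested genes were called higher and 8 lower in microglia (11.9% and 21.3% of all genes), 7 and 2 of 41 in endothelial nuclei (5.83% and 13.5%), 8 of 42 higher and 7 lower in astrocytes (12.2% and 17.6%), 3 and 8 of 39 in oligodendrocytes (10.1% and 18.5%), 4 and 3 of 41 in OPC (8.36% and 11.4%), 3 and 8 of 31 in GABAergic nuclei (11.4% and 14.8%), and 14 of 17 differed among neuronal subclasses (51%); fewer nuclei and fewer genes tested belong to that setting. Under it IL10RB in oligodendrocytes turned to a log2 fold change of -0.27 and C1QTNF6 in OPC to 0.48, and IL17RE in microglia against only the other non-neuronal nuclei to 0.056. DESeq2, and its size factors within edgeR, each left 1 gene lower in endothelial nuclei. Without thinning, the shares were 76.5% and 73.7% for CSF1R in microglia, 5.72% and 8.70% for C1QA in microglia, 53.5% and 59.8% for CXCL14 in astrocytes and 38.2% and 37.5% for IL16 in oligodendrocytes.

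Leaving out an animal leaves no test, so called genes that kept their direction were counted: 38 higher and 12 lower in microglia, 8 to 9 higher in endothelial nuclei, 11 to 12 higher in OPC, and 27 to 28 of 31 neuronal genes with the same highest subclass. With the animal as a replicate block, 37 and 10 genes were called in microglia (13% and 21.2% of all genes), 6 and 2 in endothelial nuclei (2.76% and 6.6%), 16 and 14 in astrocytes (21.4% and 27%), 14 and 26 in oligodendrocytes (23.4% and 30.5%), 13 and 17 in OPC (14.7% and 21.2%), 12 and 15 in GABAergic nuclei (21.2% and 22.3%) and 33 among neuronal subclasses (72.3%). Besides the calls lost beside their results, the block ended those of IL12B and TNFSF10 in oligodendrocytes (adjusted p = 0.0904 and 0.0626, edgeR) and IL25 in OPC (0.159) and no other of these genes. Of 113 named gene comparisons, 110 kept their call with the block, 103 with DESeq2, 111 with its size factors, 111 without the low-count filter and 110 without doublets. With at most 100 nuclei, 52 of the 86 that could be tested kept it, 32 lost it and 2 reversed. Across every alternative fit in which they were tested, 73 of the 113 kept both call and direction, and 102 did when the 100-nuclei setting was set aside.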
